A study of Mus musculus with 4 samples.

Results

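The genes described here are 10 that mark the visceral endoderm. They were chosen by name, with earlier results of these data known, and found by symbol among the 39179 genes counted. They are 5 secreted carriers (Afp, Ttr, Trf, Rbp4 and Spp2), 4 genes of protein uptake (Cubn, Amn, Lrp2 and Dab2) and the transcription factor gene Hnf4a. They were measured by RNA-seq in 4 chimeric mouse embryos of stage E7.75 (collected at E8.5, since they lagged), each a separate sample. The hosts of all 4 came from an ARC x RLZRFP cross and had received embryonic stem cells (ESCs) at the 8-cell stage, and all pregnant females drank doxycycline, 2 mg/mL with 5% sucrose, for 24 hours. The ESCs carried a doxycycline-inducible transgene for a tagged LHX1, a LIM homeodomain transcription factor, in one of 2 forms: FLAG-Lhx1 in replicates 1 and 2 of that group, here called L1 and L2, and the altered form FLAG-Lhx1-mt (also written FLAG-Lhx1-Δ) in replicates 1 and 2 of the other, here called M1 and M2. The deleted stretch is not named in the sources used here. The question is how the tissue's genes differ between the 2 forms when both are induced, and embryos without induction were not analysed here. Total counts were 21267116 to 30434442 per embryo, and all 10 genes passed the filter on low counts.

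The visceral endoderm is the epithelium that surrounds the epiblast before the placenta and liver work. It makes many of the serum proteins that the fetal liver makes later, and it takes up proteins from outside by endocytosis at its apical surface. Cubilin and megalin are its large uptake receptors: cubilin has no membrane-spanning part and is held at the surface by amnionless, while megalin binds the adaptor DAB2 inside the cell. HNF4A is needed in mouse visceral endoderm for normal expression of many secreted serum protein genes. ESCs injected into cleavage-stage embryos contribute mainly to the epiblast and its descendants, so that the visceral endoderm of such chimeras stems largely from the host. The design text gives a high ESC contribution for these chimeras, and the make-up of each tissue was not measured.

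Afp, Rbp4 and Cubn fell in FLAG-Lhx1 embryos, to 62.5%, 63.8% and 65.5% of their fitted level in FLAG-Lhx1-mt embryos. The other 7 genes did not pass the test, although each of the 10 had a negative log2 fold, from -0.68 for Afp to -0.12 for Lrp2. Thus 2 of 5 carriers and 1 of 4 uptake genes fell and none of the 10 rose, against 3.55% of the 15822 tested genes that were called lower, 2.62% called higher and 6.17% in either direction (edgeR's quasi-likelihood test, Benjamini-Hochberg adjusted p under 0.05). In 8 of the 10 genes both FLAG-Lhx1 embryos lay below both FLAG-Lhx1-mt embryos, an arrangement found in 25.8% of all tested genes (26.4% had the reverse order and 52.2% either). Since the 10 were chosen with earlier results of these data known, these shares only describe them and give no independent support. The median log2 fold was -0.55 for the carriers and -0.52 for the uptake genes, beside 0.01 for all tested genes. Leaving out 1 embryo gave 2 called genes of the 10 without L1, 2 without L2, 4 without M1 and 6 without M2. The share of all tested genes called was 3.73%, 3.10%, 9.56% and 9.16% in the same fits. In bulk RNA, fewer visceral endoderm cells and less RNA per cell cannot be told apart, and RNA of these genes from other tissues was not separated.

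**Figure D1:**
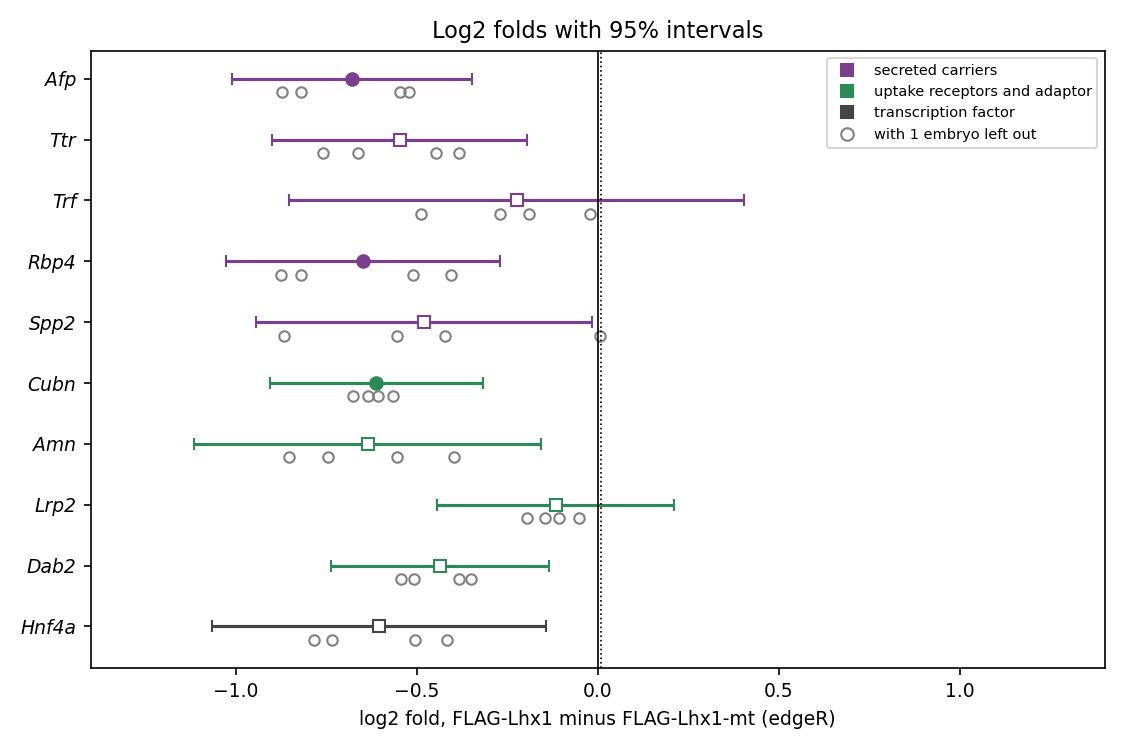
Log2 fold (FLAG-Lhx1 minus FLAG-Lhx1-mt) of each gene from edgeR with its 95% interval; filled circles mark the 3 genes with an adjusted p under 0.05, open squares the others, grey circles the fold with 1 embryo left out, and the dotted line the median of all tested genes. All 10 folds lie below 0, and the intervals of Trf and Lrp2 reach past it.

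To show the DNA beside the values, promoter windows are given for the 3 genes that fell and for Hnf4a. They run from 250 bases before to 50 bases after the start annotated by RefSeq on GRCm38.p6, and such windows were found for 8 of the 10 genes. Capitals mark matches on either strand. The strings searched for HNF4 were AGGNCAAAG and also CAAAGTCCA. Those for GATA factors were AGATAA as well as TGATAA. Those for FOXA factors were TGTTTAC as well as TGTTTGC, and for the TATA box the string was TATAAA. The motif set was drawn from general knowledge of liver and endoderm factors, and no 2 of the matches shown share bases.
Afp, chr5:90490464-90490763, plus strand: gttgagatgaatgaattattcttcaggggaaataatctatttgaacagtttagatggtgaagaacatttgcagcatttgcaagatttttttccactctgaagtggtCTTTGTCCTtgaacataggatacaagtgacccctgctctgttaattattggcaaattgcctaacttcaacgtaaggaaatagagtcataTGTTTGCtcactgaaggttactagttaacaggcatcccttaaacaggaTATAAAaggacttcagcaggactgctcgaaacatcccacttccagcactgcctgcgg
Rbp4, chr19:38124762-38125061, minus strand: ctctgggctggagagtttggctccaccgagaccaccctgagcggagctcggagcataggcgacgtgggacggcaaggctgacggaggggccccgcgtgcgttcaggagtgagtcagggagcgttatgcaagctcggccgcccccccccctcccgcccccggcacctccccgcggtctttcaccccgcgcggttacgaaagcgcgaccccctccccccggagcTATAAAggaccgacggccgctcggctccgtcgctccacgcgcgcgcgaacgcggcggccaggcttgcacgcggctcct
Rbp4, a second start, chr19:38125272-38125571, minus strand: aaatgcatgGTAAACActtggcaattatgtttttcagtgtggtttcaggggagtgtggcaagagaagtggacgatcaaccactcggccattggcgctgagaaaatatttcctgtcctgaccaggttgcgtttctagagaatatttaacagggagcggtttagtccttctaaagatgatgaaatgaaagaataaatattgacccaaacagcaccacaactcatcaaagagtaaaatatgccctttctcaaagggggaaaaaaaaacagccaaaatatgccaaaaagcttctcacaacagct
Cubn, chr2:13491827-13492126, minus strand: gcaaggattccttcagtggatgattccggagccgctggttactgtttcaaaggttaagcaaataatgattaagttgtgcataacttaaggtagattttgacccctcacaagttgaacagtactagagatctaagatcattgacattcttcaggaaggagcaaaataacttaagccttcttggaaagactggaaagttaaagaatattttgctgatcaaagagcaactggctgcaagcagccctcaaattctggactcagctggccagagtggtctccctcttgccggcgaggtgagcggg
Hnf4a, the upstream of its 2 annotated starts, chr2:163506607-163506906, plus strand: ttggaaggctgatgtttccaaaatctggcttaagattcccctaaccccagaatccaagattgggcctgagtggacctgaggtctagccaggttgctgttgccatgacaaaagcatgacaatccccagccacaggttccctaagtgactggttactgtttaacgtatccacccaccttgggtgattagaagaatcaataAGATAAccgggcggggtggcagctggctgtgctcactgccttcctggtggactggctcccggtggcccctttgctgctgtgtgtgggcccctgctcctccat

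The Afp window held 3 of these motifs. Its HNF4 match on the minus strand began 144 bases before the RefSeq start, its FOXA match 55 and its TATA box 7. The GENCODE start of Afp, 90490737, lies downstream of the RefSeq start, so distances from it would be longer. AGGNCAAAG occurred in 2.04% of all 32851 promoter windows and in 1 of the 11 windows of these genes, and CAAAGTCCA in 0.475% and in none. The Rbp4 windows held a TATA box 28 bases before the start in one case and a FOXA match 241 bases before it in the other. TATAAA was found in 13.6% of all windows, TGTTTAC in 3.65% and TGTTTGC in 5.07%. The upstream Hnf4a window held AGATAA 52 bases before the start, and its downstream window, not shown, held none of the strings. AGATAA occurred in 11.2% of all windows and in 3 of the 11, and TGATAA in 9.05% and in 1 of the 11. The Cubn window held none of these letter strings. These are matches of letters and not measured binding sites.

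Among the carriers, Afp encodes alpha-fetoprotein, the main serum protein of the yolk sac and a relative of albumin (ENSMUSG00000054932, chromosome 5, 90490737 to 90508907 of GRCm38). Afp stood at 148 and 119 CPM (the counts of a gene relative to the TMM-scaled total of its library) in L1 and L2, and 234 and 194 CPM in M1 and M2. Both FLAG-Lhx1 embryos were below both FLAG-Lhx1-mt embryos. The means were 133 ± 20.05 and 214 ± 27.9 CPM (SD, n = 2 each), and the log2 fold was -0.68 ± 0.16 (SE, edgeR adjusted p = 0.0182). Without L2 the log2 fold was -0.52 and the call was lost (edgeR adjusted p = 0.190, and 0.000106 to 0.190 over all 10 alternatives).

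Rbp4 encodes the plasma carrier of retinol (ENSMUSG00000024990, chromosome 19, 38116629 to 38125281). It had 528 and 674 CPM in L1 and L2, against 1092 and 792 CPM in M1 and M2. The groups did not overlap, but M1 stood 1.38-fold above M2. The means were 601 ± 103 and 942 ± 212 CPM (SD, n = 2 each). The log2 fold was -0.65 ± 0.18 (SE, edgeR adjusted p = 0.0432). It was no longer called without L1 (-0.51) or M1 (-0.40), with upper-quartile scaling (-0.59) or with offsets for transcript length and GC content (-0.38). Over the 10 alternatives the adjusted p ran from 3.92e-05 to 0.244.

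Ttr encodes transthyretin, which carries thyroid hormone and binds RBP4 in plasma (ENSMUSG00000061808). Its level was 409 and 547 CPM in L1 and L2 and 749 and 648 CPM in M1 and M2. As for Rbp4, L1 was lowest and M1 highest, and the groups did not overlap. The log2 fold of Ttr, -0.55 ± 0.17 (SE), missed the threshold (edgeR adjusted p = 0.0625). It passed under 6 of the 10 alternatives, DESeq2, limma-voom, no count filter, the replicate block (adjusted p = 0.0236) and leaving out L2 or M2, with adjusted p-values of 0.00132 to 0.406 over all of them.

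Spp2 encodes secreted phosphoprotein 24, a plasma protein related to cystatins that binds BMP ligands (ENSMUSG00000026295, chromosome 1, 88406961 to 88426438). Its 4 values were 42.6 and 48.1 CPM in L1 and L2 and 81.8 and 44.9 CPM in M1 and M2. The groups overlapped, and M1 alone stood apart, 1.82-fold above the other embryo of its group. The log2 fold was -0.48 ± 0.22 (SE, edgeR adjusted p = 0.218). It was 0.01 without M1 and -0.87 without M2, where it was called (edgeR adjusted p = 8.89e-05). Over the 10 alternatives the adjusted p of Spp2 was 8.89e-05 to 0.990.

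Trf encodes transferrin, the iron carrier of plasma (ENSMUSG00000032554, chromosome 9, 103204001 to 103230444). It had 5.46 and 4.07 CPM in L1 and L2 and 5.41 and 5.75 CPM in M1 and M2, from 80 to 180 counts per embryo. The groups overlapped, and the log2 fold was -0.22 ± 0.30 (SE, edgeR adjusted p = 0.719; 95% interval -0.85 to 0.40). The interval includes falls as large as that of Afp, so at this depth a like fall of Trf cannot be set apart from none. The level of Trf is uncertain for another reason. Exons of Gm20425, annotated on the same strand, cover 63.5% of its exon bases, Gm20425 is listed with 0 counts in all 4 embryos, and the sources used here do not say how reads of exons shared by annotated genes were assigned.

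**Figure D2:**
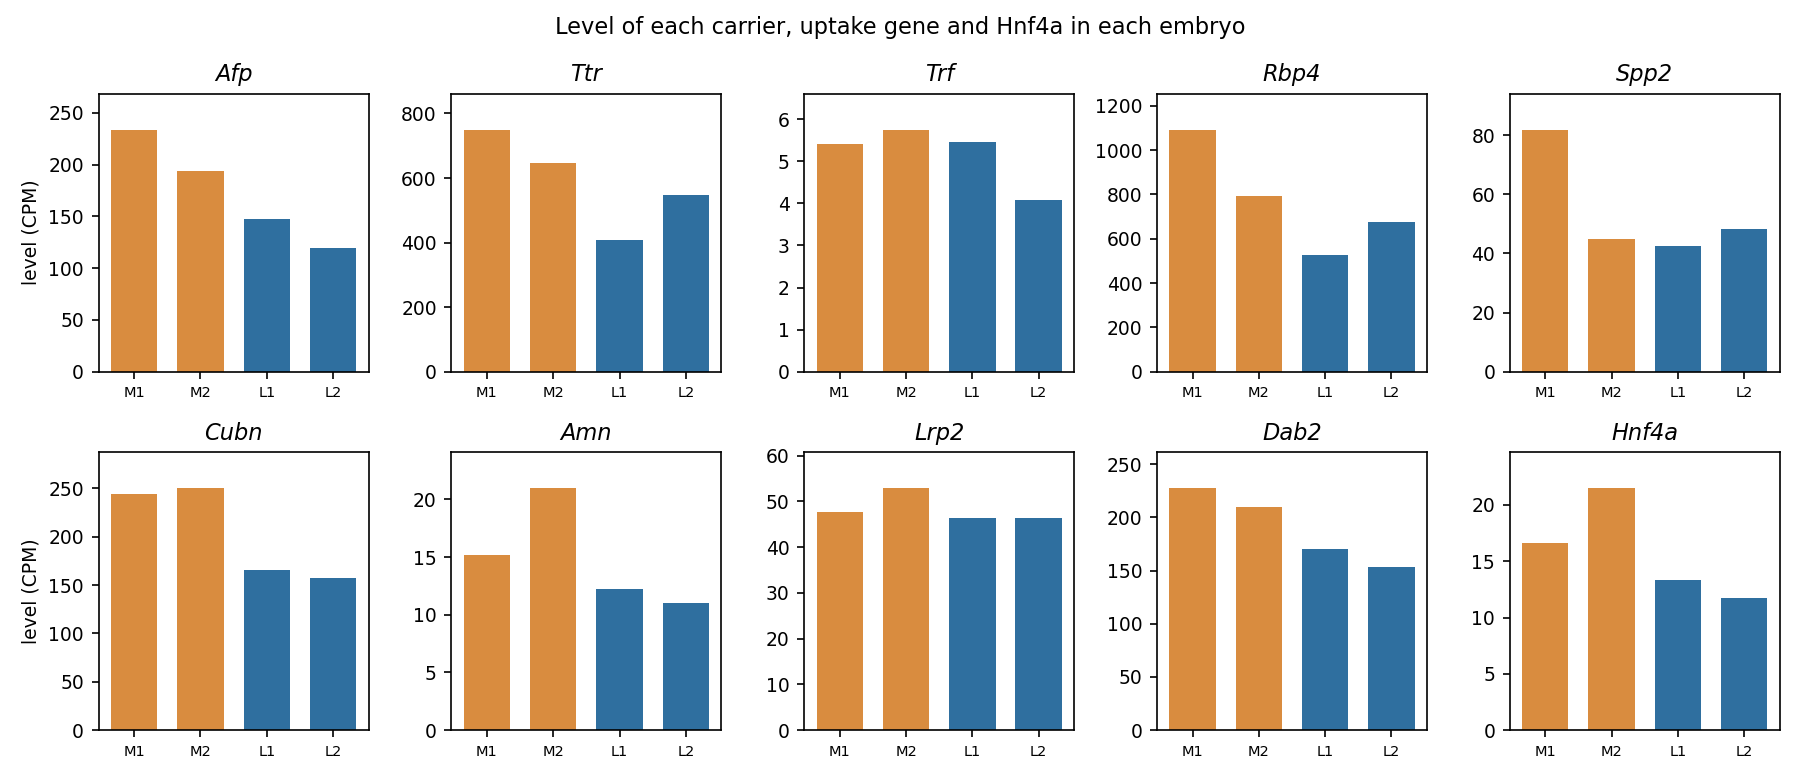
Level in CPM of each gene in each of the 4 embryos, with FLAG-Lhx1-mt (M1, M2) in orange and FLAG-Lhx1 (L1, L2) in blue; each bar is 1 embryo and each panel has its own axis from 0. The blue bars lie below the orange bars in 8 panels, and the exceptions are Trf and Spp2.

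Among the genes of uptake, Cubn encodes cubilin, the receptor for intrinsic factor bound to cobalamin, albumin, transferrin and apolipoprotein A-I (ENSMUSG00000026726, chromosome 2, 13276338 to 13491813). Its level was 166 and 158 CPM in L1 and L2 and 244 and 250.2 CPM in M1 and M2. The groups did not overlap, and the embryos of a group differed by 1.05-fold (FLAG-Lhx1) and 1.03-fold (FLAG-Lhx1-mt). The means were 162 ± 5.46 and 247 ± 4.41 CPM (SD, n = 2 each). The log2 fold was -0.61 ± 0.14 (SE, edgeR adjusted p = 0.0171). The call was lost without L2 (log2 fold -0.57, edgeR adjusted p = 0.135, and 0.000379 to 0.135 over the 10 alternatives).

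Amn encodes amnionless, which carries cubilin to the cell surface and anchors it there (ENSMUSG00000021278, chromosome 12, 111271095 to 111276426). It had 12.3 and 11.04 CPM in L1 and L2 and 15.2 and 20.96 CPM in M1 and M2. The groups did not overlap, but the FLAG-Lhx1-mt embryos differed by 1.38-fold. The log2 fold of Amn, -0.64 ± 0.23 (SE), was similar in size to that of Cubn and was not called (edgeR adjusted p = 0.112). It was called only without M1 (-0.85) among the 10 alternatives, over which the adjusted p ran from 0.00756 to 0.423.

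Lrp2 encodes megalin, a receptor of the LDL receptor family that takes up retinol-binding protein, transthyretin and many other ligands (ENSMUSG00000027070, chromosome 2, 69424340 to 69586065). Its level was 46.3 and 46.5 CPM in L1 and L2 and 47.6 and 52.9 CPM in M1 and M2. The 4 embryos lay close together, and the log2 fold, -0.12 ± 0.15 (SE), was not called (edgeR adjusted p = 0.723). The 95% interval of that fold, -0.44 to 0.21, does not reach the fitted fold of Cubn. It does overlap the 95% interval of Cubn, -0.91 to -0.32. No test of the difference between the 2 genes was made, and Lrp2 was not called under any of the 10 alternatives.

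Dab2 encodes the adaptor that links megalin to clathrin-coated pits (ENSMUSG00000022150, chromosome 15, 6299788 to 6440712). It had 169.9 and 153 CPM in L1 and L2 and 227 and 209.6 CPM in M1 and M2. The groups did not overlap, and the embryos of a group differed by 1.11-fold and 1.08-fold. The log2 fold, -0.44 ± 0.14 (SE), missed the threshold (edgeR adjusted p = 0.0830). It passed under 4 of the 10 alternatives, DESeq2, no count filter, the length and GC offsets and leaving out M2, with adjusted p-values of 0.0281 to 0.483 over all of them.

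Hnf4a (ENSMUSG00000017950, chromosome 2, 163506808 to 163572910) was measured at 13.3 and 11.7 CPM in L1 and L2 and at 16.6 and 21.5 CPM in M1 and M2. The groups did not overlap, and M2 was the highest embryo, as for Amn. The log2 fold of Hnf4a, -0.60 ± 0.22 (SE), was not called (edgeR adjusted p = 0.117) except without M1 (-0.78). Its adjusted p was 0.0154 to 0.479 over the 10 alternatives.

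The genes did not rank the embryos of a group alike. M1 was the highest of the 4 embryos for Afp, Ttr, Rbp4, Spp2 and Dab2, and M2 for Trf, Cubn, Amn, Lrp2 and Hnf4a. L1 was the lowest for Ttr, Rbp4, Spp2 and Lrp2, and L2 for the other 6. On the log2 CPM scale, Rbp4 deviated from its mean over the 4 embryos by 0.55 in M1 and 0.09 in M2, whereas Hnf4a deviated by 0.11 and 0.48. For Spp2 the deviations of M1 and M2, 0.64 and -0.22, lay farther apart than the group means.

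**Figure D3:**
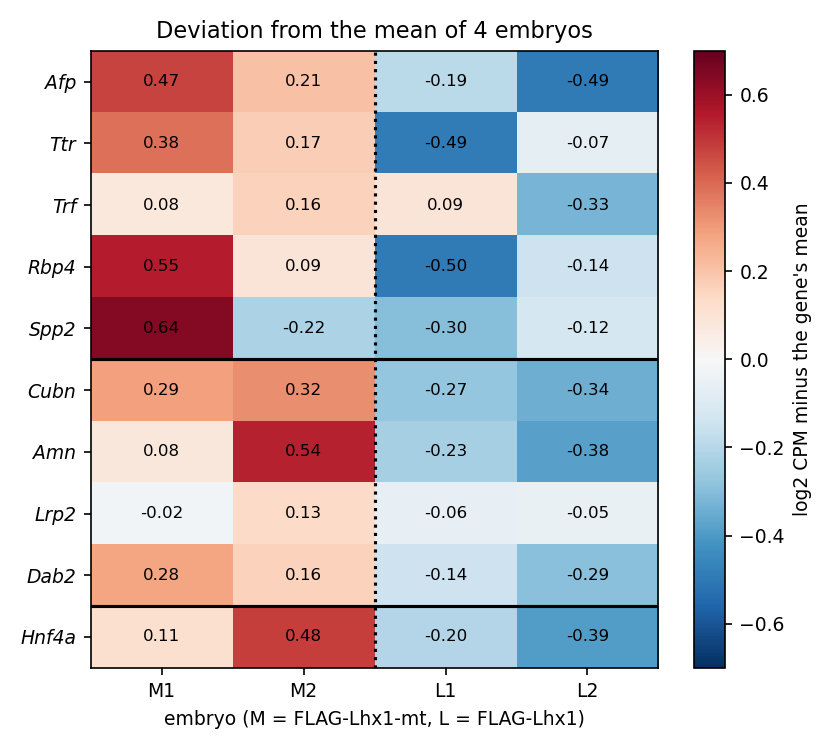
Log2 CPM of each gene in each embryo minus the mean of that gene over the 4 embryos, with lines between carriers, uptake genes and Hnf4a and a dotted line between the groups. M1 has the largest positive deviations of Rbp4 (0.55) and Spp2 (0.64), and M2 those of Amn (0.54) and Hnf4a (0.48).

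Some folds moved with a correction for transcript length and GC content. Ttr, Rbp4 and Spp2 have 1186, 1343 and 992 exon bases, whereas Cubn, Lrp2 and Dab2 have 14935, 16701 and 7342. With offsets for transcript length and GC content, the log2 fold went from -0.55 to -0.40 for Ttr, from -0.65 to -0.38 for Rbp4 and from -0.48 to -0.28 for Spp2. It went the other way for the long genes, from -0.61 to -0.85 for Cubn, from -0.12 to -0.34 for Lrp2 and from -0.44 to -0.56 for Dab2. Afp, with 3368 exon bases, was called with and without the offsets (-0.58 and -0.68). Amn went from -0.64 to -0.47, Trf from -0.22 to -0.08 and Hnf4a from -0.60 to -0.58. All 10 log2 folds were negative with the offsets too. The median log2 fold was then -0.38 for the carriers and -0.51 for the uptake genes, against -0.55 and -0.52 without the offsets.

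The 10 genes differed far more in level than between groups. Per length (RPKM, the CPM per kilobase of exon), the mean over the 4 embryos was 575 for Rbp4 and 496 for Ttr, which ranked 99 and 119 among the 37693 annotated genes. Spp2 (54.8 RPKM) and Afp (51.6 RPKM) followed, then Dab2 (25.9), Cubn (13.7), Amn (8.07), Hnf4a (3.27), Lrp2 (2.89) and Trf (1.56). If all counts of Trf came from the 1212 exon bases that it does not share with Gm20425, its mean would be 4.27 RPKM. Reads were not counted over those bases apart, so that value is a limiting case. Rbp4 was above Ttr in every embryo, by 1.08-fold to 1.29-fold, and Dab2 was above Cubn and Cubn above Amn in every embryo. Spp2 and Afp, neighbours in this order, changed places between embryos, and Hnf4a was above Lrp2 in M1 and M2 and below it in L1 and L2. Over the 4 embryos the ranges overlapped between these 2 pairs, between Rbp4 and Ttr and between Cubn and Amn. The ranges of the other neighbours, such as Ttr and Spp2 or Lrp2 and Trf, did not overlap. The place of Trf is uncertain. Over all its exon bases it lay below Lrp2 in all 4 embryos. In the limiting case of counts from unshared bases only, it would have 3.36 to 4.75 RPKM, above Lrp2 in all 4.

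**Figure D4:**
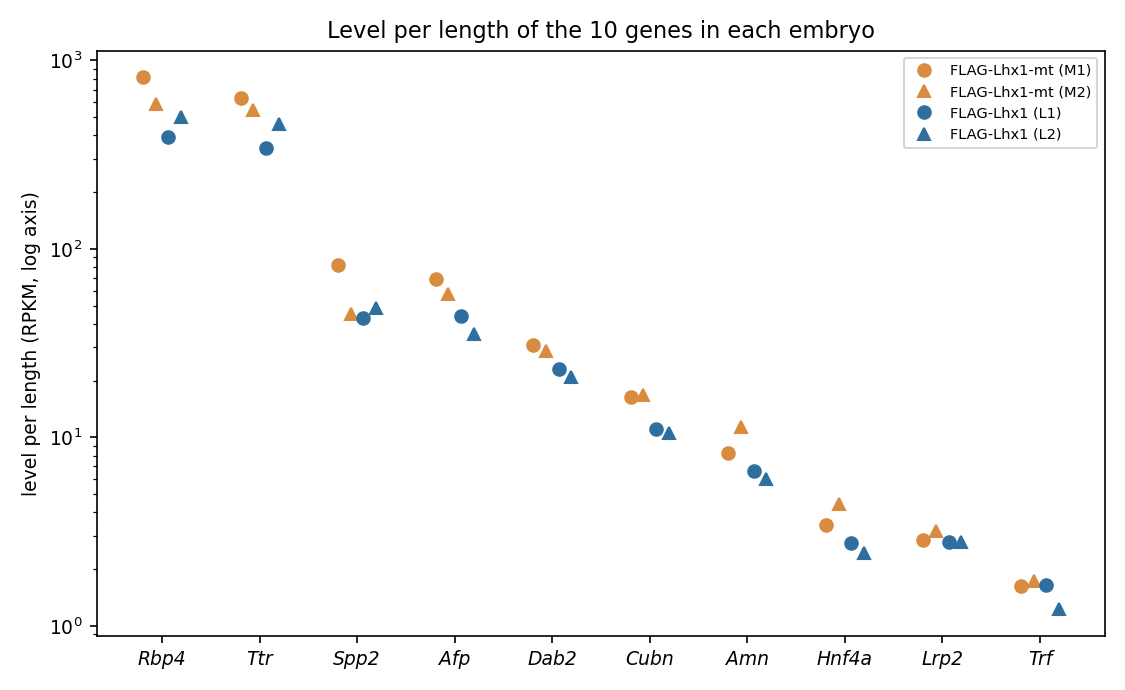
Level per length in RPKM on a log axis for the 10 genes in each embryo, ordered by their mean; orange marks FLAG-Lhx1-mt, blue FLAG-Lhx1, circles replicate 1 and triangles replicate 2. Rbp4 and Ttr lie between 345 and 813 RPKM, and all other genes below 100.

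Summed over the 5 carriers, the level was 827 and 1048 RPKM in L1 and L2 and 1598 and 1241 RPKM in M1 and M2. The 4 uptake genes summed to 43.7 and 40.2 RPKM against 58.4 and 59.8 RPKM. Both sums were lower in each FLAG-Lhx1 embryo than in each FLAG-Lhx1-mt embryo, and the FLAG-Lhx1-mt means were 1.51-fold and 1.41-fold those of FLAG-Lhx1. Rbp4 and Ttr made up most of the carrier sum, and Dab2 was the largest part of the uptake sum. The ratio of summed carriers to summed uptake genes was 18.9 and 26.1 in FLAG-Lhx1 and 27.4 and 20.7 in FLAG-Lhx1-mt, so the groups overlapped in it. Cubn exceeded Amn per length by 1.67-fold and 1.76-fold in FLAG-Lhx1 and by 1.98-fold and 1.47-fold in FLAG-Lhx1-mt, again with overlap. Cubn exceeded Lrp2 by 4.0-fold and 3.8-fold in FLAG-Lhx1 and by 5.7-fold and 5.3-fold in FLAG-Lhx1-mt, without overlap. These sums and ratios are descriptions and were not tested.

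The other lists of visceral endoderm genes differed in direction. Of 15 further genes listed for this tissue, 14 had a negative and 1 a positive log2 fold (median -0.59). In this list 6 fell and none rose. Among the 6 was Pla2g12b, a secreted phospholipase family gene. It had 15.1 and 15.2 CPM in FLAG-Lhx1 and 34.7 and 37.3 CPM in FLAG-Lhx1-mt (log2 fold -1.25, edgeR adjusted p = 0.000958). The others named by the rule were the galectin gene Lgals2 (-0.95), the homeobox gene Rhox5 (-0.76) and Soat2 (-0.88), the gene of an enzyme that esterifies cholesterol. Pla2g12b and Lgals2 were called under all 10 alternatives, whereas Rhox5 was not called without L1, nor Soat2 without L1, without M1, with upper-quartile scaling or with the offsets. The count was 3 with upper-quartile scaling, 9 without the count filter, and 3, 4, 6 and 8 without L1, L2, M1 and M2 in turn. Among 9 tested genes of apolipoproteins and lipoprotein assembly, Apoe (-1.39), Apoa1 (-1.30), Apoa4 (-1.30), Apom (-1.10) and Apoc2 fell and Apoa2 rose (0.68; adjusted p = 0.0144). The call of Apoa2 was lost without L2, and that of Apoc2 without L1 and with upper-quartile scaling. Exons of other annotated genes cover 69.8% of the exon bases of Apoa4 and 79.5% of those of Apoc2, so their values are uncertain.

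Of 10 tested transcription factor genes of this tissue, Gata4 fell (log2 fold -1.02 ± 0.24, SE, edgeR adjusted p = 0.0194), from 13.1 and 14.8 CPM in FLAG-Lhx1-mt to 7.29 and 6.51 CPM in FLAG-Lhx1, and none rose. This call was lost without L2 (-0.93). The other 9, which include Gata6 (0.26), Foxa2 (0.44) and Sox17 (-0.41), did not pass, and the median of the list was 0.20 (0.06 without L1, 0.05 without L2 and 0.00 without M1 and 0.38 without M2). Nr0b2, Onecut1 and Cebpa were below the count filter.

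Of 25 further serum protein genes 16 were tested, with a median log2 fold of 0.29 that was -0.12 with DESeq2 over the genes to which it gave an adjusted p, 0.63 without the count filter, 0.79 without L1 and 0.81 without M1. Of the 16, 10 had a positive and 6 a negative log2 fold. Several positive folds rest on few counts, such as Serpind1 (3 to 14 per embryo) and Plg (8 to 17). Fgb (-0.60, 629 to 1222 counts) and Fgg (-0.63, 246 to 592 counts) had the most counts, and neither was called. The 25 genes summed to 101.7 and 79.9 CPM in M1 and M2 and to 70.1 and 73.1 CPM in L1 and L2. Gc, the vitamin D-binding relative of Afp, fell from 2.41 and 3.07 CPM in FLAG-Lhx1-mt to 0.687 and 0.509 CPM in FLAG-Lhx1 (log2 fold -2.17 ± 0.48, SE, edgeR adjusted p = 0.0155), a call lost without L2. Serping1, the C1 inhibitor gene, rose (1.65, adjusted p = 0.0421), a call lost with DESeq2 and without either FLAG-Lhx1 embryo. Alb, the albumin gene and chief serum protein gene of the liver, had 1 to 5 counts per embryo, against 2345 to 6073 of Afp.

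Of 24 genes of endocytosis, such as clathrin, AP-2 and RAB genes, 2 fell and 1 rose, and their median log2 fold was -0.10 (-0.17 to -0.06 with 1 embryo left out). Folr1, which encodes the folate receptor alpha, fell from 80.7 and 78.0 CPM in FLAG-Lhx1-mt to 29.4 and 27.0 CPM in FLAG-Lhx1 (log2 fold -1.49 ± 0.15, SE, edgeR adjusted p = 5.28e-05). Ap2m1, a subunit of the clathrin adaptor AP-2, fell (-0.61, adjusted p = 0.0304), a call lost without L2 (-0.51), without M1 (-0.46) and with the length and GC offsets (-0.53). Vldlr, a lipoprotein receptor gene of the family of Lrp2, rose from 10.95 and 8.79 CPM to 22.2 and 22.7 CPM (1.19 ± 0.21, SE, adjusted p = 0.00457). Lrpap1, the chaperone gene of megalin and its relatives, was not called (-0.20, adjusted p = 0.505).

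Of 14 tested genes that handle iron, retinol and cobalamin, the ligands of these carriers and receptors, 2 fell and none rose (median -0.05; the median was 0.03 without M1 and 0.00 with upper-quartile scaling). Tcn2, the plasma carrier of cobalamin, fell (-0.95 ± 0.20, SE, edgeR adjusted p = 0.0133), and so did the ferritin light chain gene Ftl1 (-0.81, adjusted p = 0.00883), of whose exon bases 34.6% are shared with other genes. Neither was called without L2 (-0.92 and -0.66), nor Ftl1 with the length and GC offsets. The transferrin receptor gene Tfrc (0.14) was not called.

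**Figure D5:**
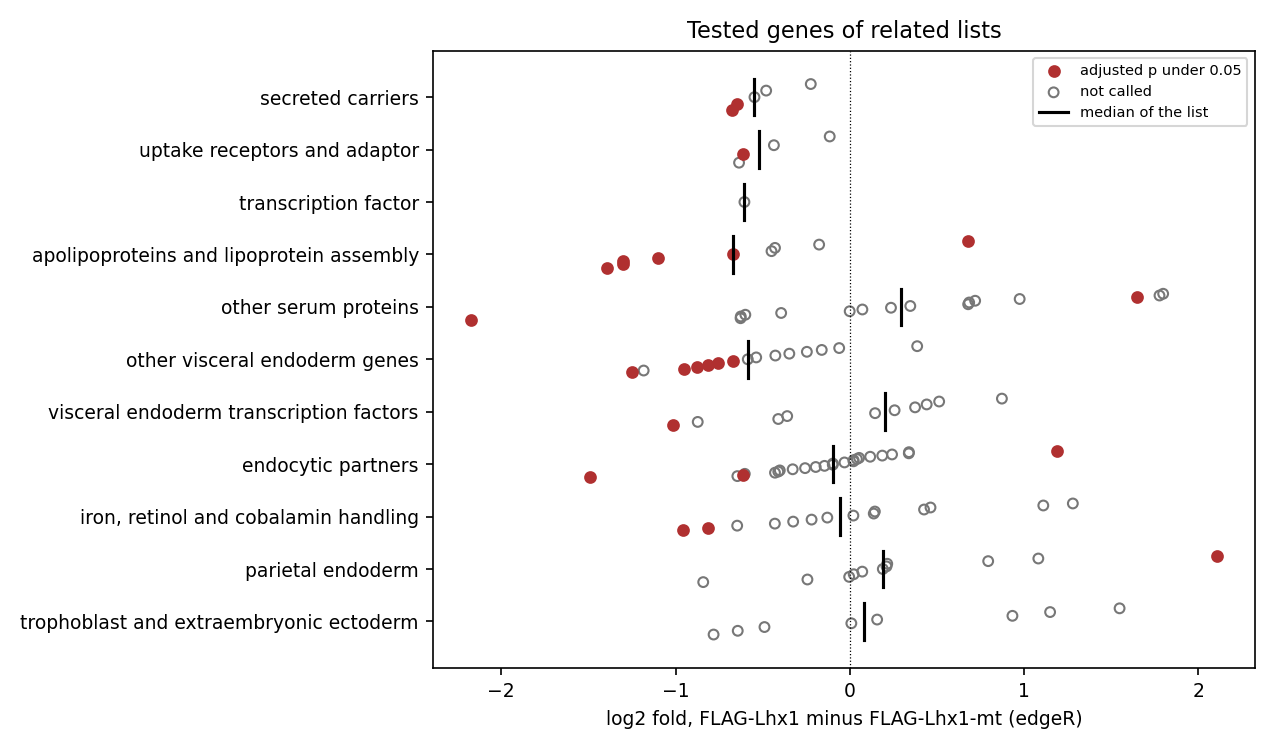
Log2 folds (FLAG-Lhx1 minus FLAG-Lhx1-mt) of the tested genes of related lists, with red points for an adjusted p under 0.05, open points for the others and a bar at the median. Carriers, uptake genes, apolipoproteins and other visceral endoderm genes have medians between -0.67 and -0.52, and the remaining lists have medians between -0.10 and 0.29 apart from Hnf4a alone.

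Markers of other tissues were as follows. Of 11 tested parietal endoderm genes Plat rose (2.11, edgeR adjusted p = 0.0322; not called by DESeq2 or with the length and GC offsets) and none fell. The log2 fold of Plat was 4.04 without M1 and 1.24 without M2, and without M1 3 genes of the list were called higher and 1 lower. The list summed to 422 to 444 CPM in FLAG-Lhx1-mt and 425 to 454 CPM in FLAG-Lhx1. None of 8 tested trophoblast genes (summed level 24.1 and 26.9 CPM in FLAG-Lhx1-mt and at most 22.4 CPM in FLAG-Lhx1; Plac1 -0.78 and Tfap2c 0.93) and none of 5 tested genes of blood and yolk sac mesoderm (42.8 to 44.4 against 40.7 to 42.1 CPM; Tal1 0.86 and Lmo2 -0.28) was called. Plac1 was called lower with DESeq2 (-0.81), without the count filter (-0.84) and without M2 (-0.86), and without M2 Tfap2c (1.34) and Tal1 (1.78) were called higher. The list of maternal blood and decidua summed to 7.38 CPM in M2 and 3.74 to 4.38 CPM in the other embryos, with Hba-a2 at 0 counts in all 4 and neither Cryab (1.16) nor Dcn (-0.53) called; without M1 3 of its genes were called lower, and without the count filter 2. Of 7 epiblast genes 6 fell and 1 rose (sums of 881 to 1067 against 415 to 571 CPM; Pou5f1 -1.76, Utf1 -2.97, Fgf5 -1.78, Nanog -1.50). The number of epiblast genes that fell was 5 with DESeq2, upper-quartile scaling or the offsets and without L2 or M1, Fgf5 was not called by DESeq2 (-1.81), and none rose without L1. Of 5 tested genes listed for the anterior visceral endoderm Cer1 (-0.72) and Dkk1 (-0.71) fell and Hesx1 (2.80) rose. The tissues in which Hesx1 rose and Cer1 and Dkk1 fell were not measured in this bulk RNA. Neither the rise nor the falls are therefore placed in the visceral endoderm. Cer1 was not called without L2 (-0.45) or with the offsets (-0.59), nor Dkk1 without L1 (-0.80) or without L2 (-0.64). Of 7 tested definitive endoderm genes Trh (-1.66) and Cldn6 (-1.43) fell and Cpm (1.32) rose. The part of these tissues in the levels of the 10 genes was not tested.

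For each group, the genes whose pattern over the 4 embryos was closest to its mean profile were named, among 8591 protein-coding genes whose mean level reached 5 CPM. For the carriers they were Ogg1, Apex1, Alkbh6, Gmpr2 and Rad52, with root-mean-square differences of 0.011 to 0.023 in log2 CPM. For the uptake genes they were Rab4a, Dmap1, Dgat1, Mars and Adi1, with differences of 0.018 to 0.023. The carriers themselves lay 0.13 (Rbp4) to 0.26 (Trf) from their own mean profile, and the uptake genes 0.09 (Dab2 and Cubn) to 0.17 (Lrp2). The named genes were picked as the closest of 8591 over only 4 embryos. Their smaller differences therefore follow from the selection and show no shared regulation. None of these 10 named genes was called, and their log2 folds ran from -0.53 (Rad52) to -0.42 (Dmap1).

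Across all genes, 976 were called, 415 higher and 561 lower in FLAG-Lhx1, and with upper-quartile scaling 472 were higher and 395 lower. Lhx1 itself was not called (log2 fold 0.11, edgeR adjusted p = 0.733), and the share of transgene reads in its counts was not measured. The biological coefficient of variation was 18.2%. For 1 gene alone, the smallest two-sided p that exact permutation of 2 against 2 embryos allows is 0.333, so each call rests on edgeR's variance model, which borrows from all genes. No batch is named in the labels, which give each library as RNA of 1 embryo.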

How the data were processed

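RNA was sequenced from 4 single embryos, 2 per group, grouped by the titles in the labels. Per the labels' protocols, Geo-seq cDNA amplified for 10 cycles was made into Nextera XT libraries from 0.5 ng and read as paired ends of 100 bp; amplification copies enter the counts. The deposited values are raw counts, 1 per Ensembl gene and embryo. STAR, featureCounts, Subread, GRCm38 and mm10 are named in the submitters' processing notes; the sources used here give no versions, annotation release or strand setting. Symbols, positions and exon lengths came from GENCODE vM21 (GRCm38), which held 37693 (96.2%) of the IDs.

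Counts were filtered with filterByExpr (minimum count 10, minimum total 15), scaled by TMM and compared with edgeR 4.0.16 (R 4.3.3; estimateDisp, glmQLFit, glmQLFTest; group only), adjusting over all 15822 tested genes at 0.05. A negative log2 fold means lower in FLAG-Lhx1, and its SE is the size of the fold over the root of F. CPM and RPKM use TMM-scaled totals, and RPKM the union of a gene's exons. Libraries differed by chi-square per degree of freedom of 26.8 to 101, so each counted as 1 replicate; 3 counts correspond to 0.0959 to 0.153 CPM, a floor for counting error only. The 95% interval of a fold uses the t distribution at the residual plus prior degrees of freedom of the fit. The procedure was tested on simulated counts. It recovered 49% of the genes given a log2 fold of 1 and 90% of those given 2, with 3 false calls among 142. Smaller folds, such as those of the 10 genes, were not among those simulated.

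The 10 genes and the other lists were chosen with earlier results of these data known. All 10 are reported. Of each other list, up to 4 called genes with the smallest p are named, or its 2 tested genes of smallest p if there was no call. Apoa2, Apoc2, Alb, Fgb, Fgg, Serpind1, Plg, Lrpap1, Tfrc, Gata6, Foxa2, Sox17, Lhx1, Gm20425 and genes named as untested or at 0 were added after their values were seen. So was the Trf level with all its counts set over the length of its unshared bases. Alternatives were DESeq2 1.42.0, limma-voom (limma 3.58.1), upper-quartile scaling, no filter, offsets for transcript length and GC content, the replicate number as a block, and each embryo left out.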

Additional observations from a re-analysis of the deposited data

How the results depend on the processing

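Of 100 pairings of a gene with an alternative, 79 kept direction and side of the threshold, 6 lost a call, 14 gained one and 1 reversed: Spp2, at 0.0073 without FLAG-Lhx1-mt replicate 1. The cause of these changes was not tested. DESeq2 called 5 of the 10 genes, adding Ttr (-0.58) and Dab2 (-0.47), and no count filter called 6, adding Ttr (-0.61), Spp2 (-0.54) and Dab2 (-0.50). Limma-voom added Ttr (-0.56), upper-quartile scaling lost Rbp4 (-0.59), and the length and GC offsets called 621 genes in all, lost Rbp4 (-0.38) and added Dab2 (-0.56). The share of all tested genes called was 8.99% with DESeq2 and 4.41% without the count filter. It was 6.44% with limma-voom, 5.48% with upper-quartile scaling and 3.92% with the offsets. With 1 embryo left out, 521 to 1648 genes and 2 to 6 of the 10 were called, and the median was -0.82 to -0.40 for carriers and -0.61 to -0.45 for uptake genes. Single folds then ran from -0.87 to -0.52 (Afp), -0.76 to -0.38 (Ttr), -0.88 to -0.40 (Rbp4), -0.87 to 0.0073 (Spp2), -0.68 to -0.57 (Cubn), -0.85 to -0.40 (Amn), -0.54 to -0.35 (Dab2), -0.78 to -0.42 (Hnf4a), -0.49 to -0.02 (Trf) and -0.19 to -0.05 (Lrp2). A fit with 1 embryo in a group takes that embryo to vary like the others. Genes called lower numbered 952 without the filter and 344 with the offsets, against 561.

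Deviations of same-numbered embryos correlated at 0.016 across genes. The labels name no batch, and whether same-numbered embryos shared one was not tested. With the replicate block 1138 genes (7.19% of those tested) were called, and of the 10 Ttr was added (-0.56), with no other change of call among them. Trf, at 80 to 180 counts, was measured with the widest interval of the 10 genes.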
